A study of Mus musculus with 6 samples.

Results

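The aminoacyl-tRNA synthetases, the enzymes that join each amino acid to its transfer RNA (tRNA), were followed in mouse colon organoids with and without induced deletion of the atypical protein kinases C. Members were found by a rule on the gene symbol, which was chosen with earlier results of these data known. The rule took a capital letter followed by "ars" and by nothing, 1 or 2, together with Eprs, Farsa, Farsb and Tarsl2. This rule found 39 rows, which carry 38 symbols, among the 25067 rows of the series. They comprise 20 rows for enzymes of the cytosol, of which Gars and Kars also serve mitochondria, 17 rows whose symbols end in 2 and encode the mitochondrial enzymes, Tarsl2, and a second row under the symbol Vars that is described apart.

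RNA was sequenced from 6 libraries of organoids grown from isolated crypts of C57BL/6 mice labelled 8 weeks old. All 6 shared the genotype Prkcif/fPrkczf/f;Villin-CreERT2, in which the Villin promoter drives a tamoxifen-activated Cre recombinase in the intestinal epithelium. The vehicle group of 3 libraries received ethanol and is described by the submitters as wild type, although it carries the floxed genes and the Cre transgene. The 4-OHT group of 3 libraries received 4-OH-tamoxifen and is described as Prkci/Prkz-DKO, a double knockout. Treatment began upon passage and RNA was taken after 3 days. No library combined 4-OHT with intact kinase genes, so effects of kinase loss, of active Cre and of the drug cannot be told apart. The labels do not say whether libraries of a group came from separate cultures or animals, and p-values therefore measure the spread between these libraries, which may be technical.

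The libraries held between 15804709 and 26957612 reads. Prkcz, a targeted gene, stood at 880, 904 and 954 normalized counts in the vehicle libraries and at 287, 265 and 290 in the 4-OHT libraries. Prkci, the other target, was lower by much less, at -0.22 on the log2 scale (SE 0.05, limma adjusted p = 0.00081). All 7 epithelial markers were detected, at a summed 20300 to 20700 RPM (reads scaled to the total of the library) in vehicle and 26100 to 27800 in 4-OHT libraries. Of the 7, 6 (85.7%) rose past an adjusted p of 0.05 in limma, beside 22.7% of all tested rows. The other, Cdx2, fell (-0.26 on the log2 scale, limma adjusted p = 6.9e-05), as 21.0% of all tested rows did. The 8 colon markers summed to 975 to 1090 RPM in vehicle and 1100 to 1210 in 4-OHT libraries. Markers listed for Paneth cells and ileum summed to 35.8 and 39.4 RPM in vehicle replicates 1 and 3 and to more in vehicle replicate 2. They summed to 54.8, 116 and 109 in 4-OHT replicates 1, 2 and 3. Ang4 was the highest of them in every library, with means of 529 normalized counts in vehicle and 985 in 4-OHT libraries. Fabp6 had a vehicle mean of 2.14 and stood at 4.13, 124 and 38.7 in 4-OHT replicates 1, 2 and 3. Reg3g had a vehicle mean of 0.547 and stood at 1.03, 376 and 140 in those replicates. Immunoglobulin transcripts were at 0 in all vehicle libraries and reached 0.0519, 10.4 and 3.52 RPM in 4-OHT replicates 1, 2 and 3. Smooth muscle markers were at 0.147 to 0.696 and at 0.727 to 7.78, fibroblast markers at 0.297 to 1.08 and at 0.415 to 9.71, leukocyte markers at 8.92 to 11.2 and at 6.75 to 8.29, and vessel markers at 2.09 to 2.86 and at 1.66 to 2.61 RPM. In the Paneth and ileum, immunoglobulin and smooth muscle sums, 4-OHT replicates 2 and 3 stood above the other libraries. In the fibroblast sum only replicate 3 did, with replicate 2 at 0.868. In the leukocyte and vessel sums neither did. Because of these traces, results were also computed without 4-OHT replicates 2 and 3.

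Most synthetases recognise 1 amino acid and its tRNAs. They activate the amino acid with ATP and transfer it to the end of the tRNA, which then enters the ribosome. Mammals use separate nuclear genes for the cytosol and for mitochondria, apart from Gars and Kars, each of which supplies both compartments. Several cytosolic enzymes, Dars, Eprs, Iars, Kars, Lars, Mars1, Qars and Rars, are held in a multisynthetase complex on the scaffold proteins Aimp1, Aimp2 and Eef1e1. Uncharged tRNA activates the kinase Gcn2, after which translation of the transcription factor Atf4 increases, and many cytosolic synthetase genes are known targets of Atf4. The proliferating epithelium of the crypt has a high demand for protein synthesis.

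Atf4 binds, with partners of the C/EBP family, to an element whose core reads TGATGNAA. This core was searched on both strands of RefSeq promoters of the build GRCm38.p6, from 250 bases before to 50 bases after the annotated start, and 28 of the 38 symbols had an entry. It was found in 5 of the 13 cytosolic genes with an entry and in 0 of the 14 mitochondrial genes with one. Among all tested genes with an entry, 278 of 10059 (2.76%) held the core, and among all promoters 1304 of 32851 (3.97%) did. The windows are shown because they come from the 5 cytosolic synthetase genes that carry the core, all of which were lower in the 4-OHT libraries. They read 5′ to 3′ along the gene's strand, with the core or its reverse complement in capitals.
Aars, chr8:111033840-111033869, plus strand: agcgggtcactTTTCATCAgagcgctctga
Gars, chr6:55037960-55037989, plus strand: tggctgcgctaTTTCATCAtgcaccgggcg
Iars, chr13:49682126-49682155, plus strand: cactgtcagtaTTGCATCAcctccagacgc
Tars, chr15:11399655-11399684, minus strand: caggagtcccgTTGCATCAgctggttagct
Yars, chr4:129189895-129189924, plus strand: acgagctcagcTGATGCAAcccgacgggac
In the Aars window shown the core lay 9 bases after the start. It lay 30 bases before the start in Gars and 15 before it in Tars, and 7 bases after it in Iars and 3 after it in Yars. The log2 fold changes of these 5 genes ran from -0.70 to -0.26. Of the 8 cytosolic genes with an entry and no match, 5 were also lower, and the log2 fold changes of the 8 ran from -0.59 to 0.09. Over all tested rows, 21.0% fell past an adjusted p of 0.05 in limma. The match is a description of letters in a window, and binding was not measured.

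The cytosolic synthetases were lower in the 4-OHT libraries as a group, and none of the 20 counted members passed the test in the other direction. A second row under the symbol Vars, left out of these counts and described below, did rise (log2 fold change 0.44, limma adjusted p = 1e-07). Of 20 cytosolic members, 15 (75.0%) fell past an adjusted p of 0.05 in limma, 0 rose and 5 did not pass. Over all 13210 tested rows 43.6% changed, made up of 21.0% that fell and 22.7% that rose. At an unadjusted p under 0.05, and with edgeR or DESeq2, again 15 cytosolic members fell and 0 rose. The median log2 fold change of the 20 members was -0.30, within a range of -0.70 to 0.09, while the median over all tested rows was -0.01. In 16 members every 4-OHT value lay below every vehicle value, against 25.3% of all tested rows, and in 1 member, Qars, every 4-OHT value lay above, against 26.8%. Without Gars and Kars, 14 of 18 fell and the median was again -0.30. All 39 rows passed the minimum of a mean normalized count of 10.

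The reads on the 20 cytosolic genes made up 0.540%, 0.541% and 0.553% of the vehicle libraries and 0.406%, 0.410% and 0.402% of the 4-OHT libraries. Relative to the vehicle mean, the median member stood at -0.38, -0.25 and -0.31 on the log2 scale in 4-OHT replicates 1, 2 and 3. Of these libraries, 4-OHT replicate 1 had the lowest summed level of each marker list of other tissues and cell types, and the part of those traces in the synthetase values was not tested. In bulk RNA, fewer cells of a type and less RNA per cell cannot be told apart. The 10 proliferation genes listed for comparison (Mki67, Top2a and others) all fell as well, beside 21.0% of all tested rows, with a median of -0.68. Their summed level was 1920 to 2020 RPM in vehicle and 1020 to 1140 in 4-OHT libraries. The part of these genes in the synthetase result was not tested.

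**Figure D1:**
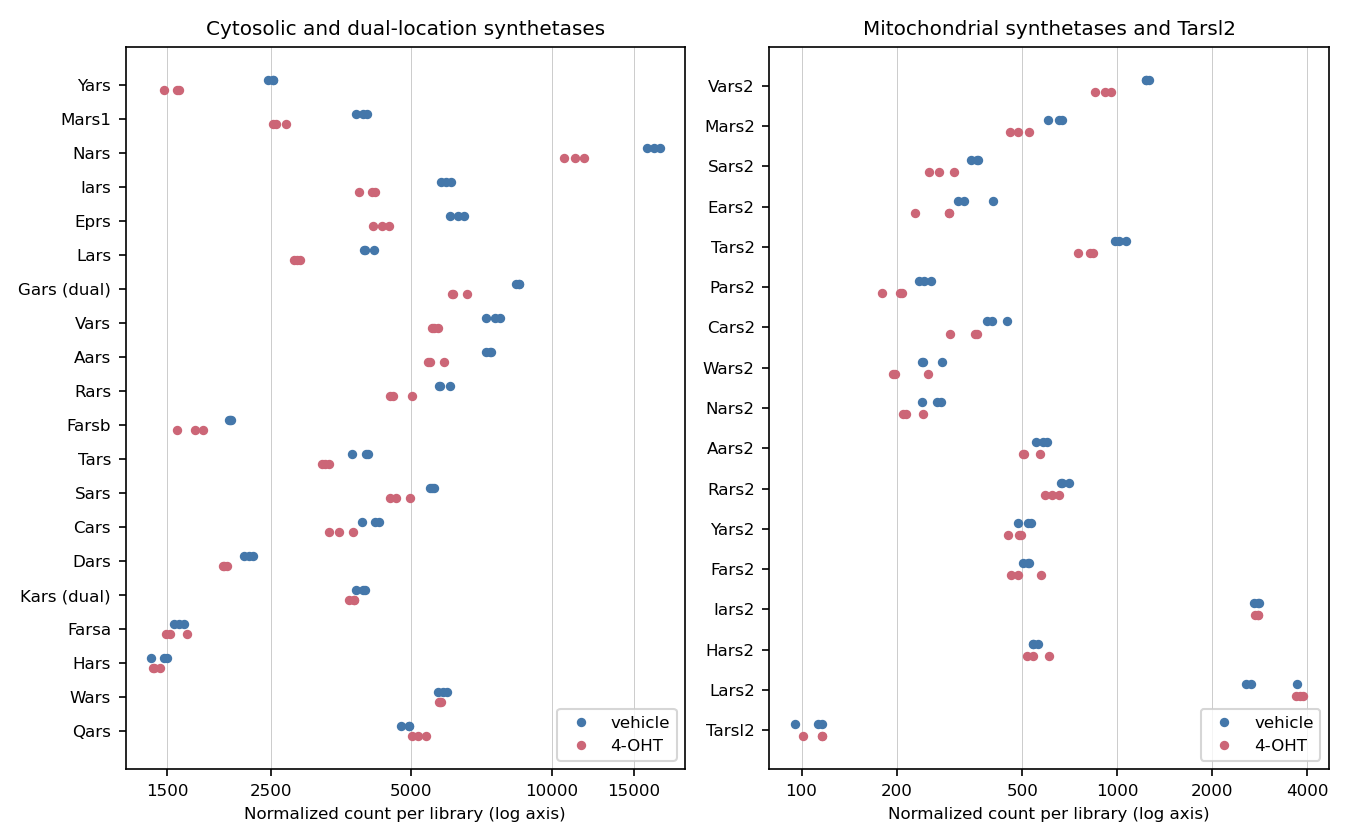
Normalized counts on log axes for each synthetase (rows), with 1 point per library, vehicle in blue and 4-OHT in red. Among the cytosolic genes at left, 16 have all red points below all blue points, as 25.3% of all tested rows do. Lars2 at right has 1 vehicle point, at 3714, among the 4-OHT points. 1 mitochondrial gene is not drawn.

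Yars, the tyrosyl-tRNA synthetase, showed the largest fall of the family. Its normalized counts were 2534, 2461 and 2527 in the vehicle libraries and 1588, 1572 and 1480 in the 4-OHT libraries. The groups were far apart, and the fall came to 38.3%, or -0.70 on the log2 scale (SE 0.05, limma adjusted p = 1.6e-09). Nars, for asparagine, was the most abundant synthetase and fell by 32.4%, from 16023, 16554 and 17037 to 10622, 11706 and 11205 (log2 fold change -0.57, limma adjusted p = 6.4e-09). Asparagine synthetase itself, Asns, had a log2 fold change of -0.93.

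Among members of the multisynthetase complex, 6 of 8 (75.0%) fell, with a median log2 fold change of -0.41. Of the 12 cytosolic enzymes outside the complex, 9 (75.0%) fell, with a median of -0.27. The share that fell was thus the same inside and outside the complex, beside 21.0% of all tested rows. These groupings were made with the values known and are descriptions. Mars1, the methionyl enzyme that also supplies the initiator tRNA, had 3938, 3815 and 4025 normalized counts in vehicle and 2570, 2700 and 2534 in 4-OHT libraries (-0.59 on the log2 scale, SE 0.05, limma adjusted p = 5e-09). Its exons overlap those of Ddit3 on the opposite strand by 68 bases. Ddit3 also fell (-0.84), from a mean of 371 normalized counts in vehicle to 209 in 4-OHT libraries. The part of the shared bases in the values of either gene was not tested. Eprs, a single protein that charges both glutamate and proline tRNAs, went from 6065, 6298 and 6480 to 4480, 4137 and 4333 (-0.54, SE 0.05, limma adjusted p = 1.3e-08).

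Iars and Lars, which charge the branched-chain amino acids isoleucine and leucine, fell to a similar extent. Iars had 5793, 5928 and 6076 normalized counts in vehicle and 4192, 3867 and 4117 in 4-OHT libraries (log2 fold change -0.55, limma adjusted p = 1e-08). Lars, whose protein also senses leucine for mTORC1, had 3962, 3983 and 4162 against 2851, 2885 and 2803 (-0.50, limma adjusted p = 2.6e-08). In both genes the highest 4-OHT library lay well under the lowest vehicle library. Rars, for arginine, fell less, from 5758, 5728 and 6068 to 4497, 5013 and 4569 (-0.32, limma adjusted p = 2.1e-05).

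Dars, for aspartate, showed the smallest fall that passed the test. Its values were 2192, 2287 and 2244 in vehicle and 1979, 2013 and 1985 in 4-OHT libraries (-0.17 on the log2 scale, SE 0.05, limma adjusted p = 0.0068). Qars and Kars, the remaining synthetases of the complex, did not pass. Qars, for glutamine, had 4761, 4956 and 4959 normalized counts in vehicle and 5390, 5184 and 5028 in 4-OHT libraries, which do not overlap, yet its log2 fold change of 0.09 (95% interval -0.00 to 0.18) had a limma adjusted p of 0.12.

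The dual-location enzymes differed from each other in their values. Gars, which supplies glycyl-tRNA to cytosol and mitochondria, had 8498, 8388 and 8505 normalized counts in vehicle and 6157, 6588 and 6129 in 4-OHT libraries, and its log2 fold change was -0.43 (SE 0.04, limma adjusted p = 1.3e-07). Kars, the lysyl enzyme, had 3805, 3948 and 3987 against 3776, 3770 and 3681. The Kars groups did not overlap, but its log2 fold change of -0.06 (95% interval -0.16 to 0.03) did not pass (limma adjusted p = 0.25). A separate test of the difference between these genes was not made.

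Outside the complex, Vars, Aars, Tars, Sars, Cars and Farsb also fell. Vars, the valyl enzyme, had 7565, 7230 and 7742 normalized counts in vehicle and 5717, 5591 and 5553 in 4-OHT libraries (log2 fold change -0.42, limma adjusted p = 1.7e-07). The second row under this symbol moved the other way and is described below. Aars, the alanyl enzyme, had 7429, 7377 and 7239 against 5476, 5869 and 5422 (-0.40, limma adjusted p = 4.7e-07). The groups were well separated in both, although exons of Aars share 1326 bases with Exosc6 on the same strand, so reads there could belong to either gene.

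Sars, for serine, had 5479, 5548 and 5595 normalized counts in vehicle and 4513, 4962 and 4632 in 4-OHT libraries (log2 fold change -0.24, limma adjusted p = 0.00026). Tars, for threonine, had 3727, 4003 and 4034 against 3334, 3218 and 3265 (-0.26, limma adjusted p = 0.00013). Cars, for cysteine, had 4259, 4175 and 3927 against 3330, 3751 and 3499 (-0.23, limma adjusted p = 0.0012). In these 3 genes the falls were smaller, from 14.5% to 16.5%, and the groups still did not overlap.

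Phenylalanyl-tRNA synthetase is built from a catalytic subunit, Farsa, and a second subunit, Farsb, and the values of the subunits differed. Farsb had 2031, 2056 and 2045 normalized counts in vehicle and 1578, 1787 and 1725 in 4-OHT libraries (-0.27 on the log2 scale, SE 0.05, limma adjusted p = 0.00039). Farsa had 1587, 1549 and 1627 against 1657, 1518 and 1489, so its groups overlapped, and its log2 fold change was -0.03 (95% interval -0.15 to 0.08, limma adjusted p = 0.68). The difference between the subunits was not tested by itself. Hars, for histidine, and Wars, for tryptophan, also did not pass, at -0.03 (95% interval -0.15 to 0.08) and -0.02 (-0.11 to 0.06).

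**Figure D2:**
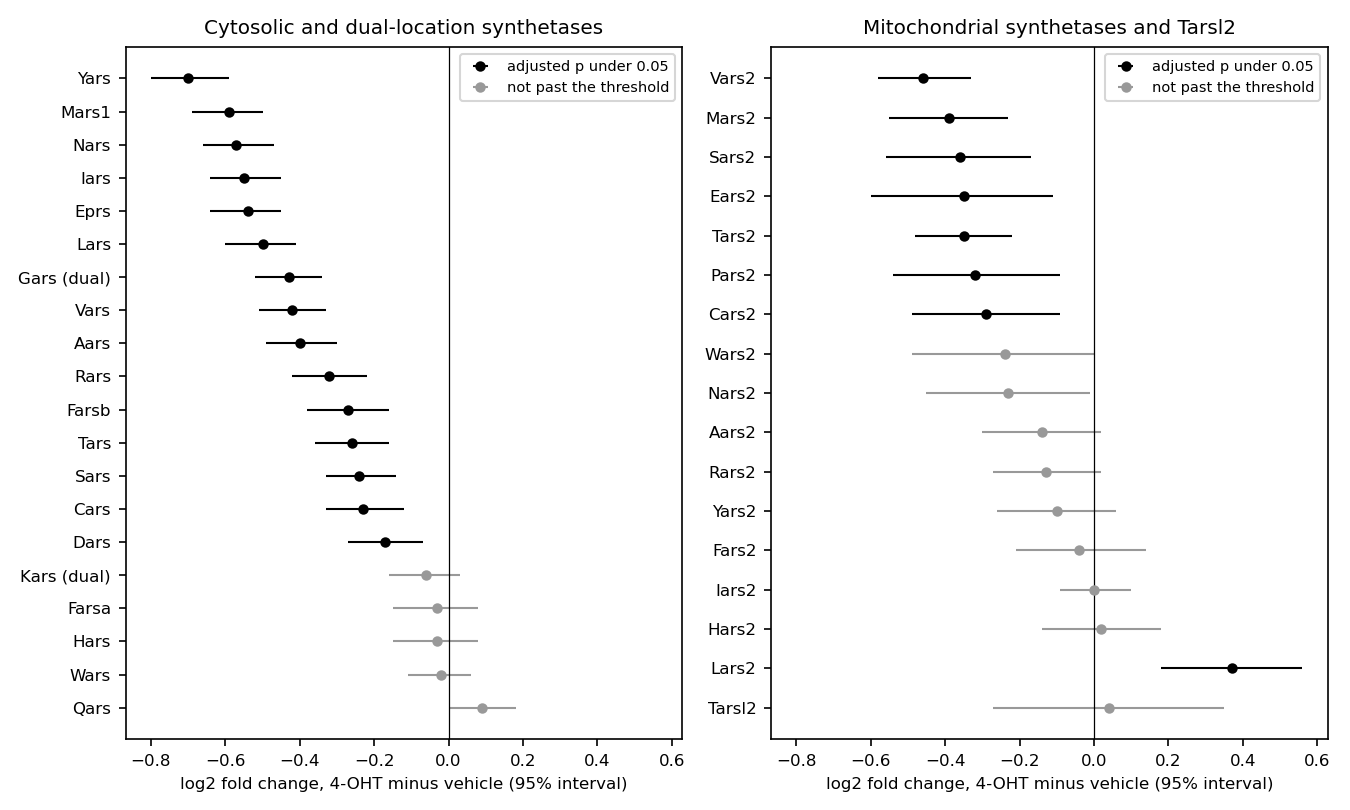
Log2 fold change of each synthetase, 4-OHT minus vehicle, with 95% intervals from limma, black where the adjusted p is under 0.05 and grey otherwise. At left the 15 cytosolic genes past the threshold lie below 0, from Yars at -0.70 to Dars at -0.17, and at right mitochondrial genes past the threshold lie below 0, from Vars2 at -0.46, except Lars2 at 0.37. 1 mitochondrial gene is not drawn.

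The mitochondrial synthetases had a smaller median shift, a difference that was not tested. Of 17 members, 8 (47.1%) fell, 1 rose and 8 did not pass, beside 21.0% falling and 22.7% rising over all tested rows. The median log2 fold change was -0.24. In 9 of the 17 members every 4-OHT value lay below every vehicle value, against 25.3% of all tested rows. Reads on these genes made up 0.0719%, 0.0774% and 0.0733% of the vehicle libraries and 0.0700%, 0.0658% and 0.0666% of the 4-OHT libraries, and these shares include the higher Lars2. The median member stood at -0.21, -0.24 and -0.20 in 4-OHT replicates 1, 2 and 3. In each of these libraries the mitochondrial median lay closer to 0 than the cytosolic one, by the least in replicate 2.

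Vars2, the mitochondrial enzyme for valine, had 1236, 1231 and 1259 normalized counts in vehicle and 956, 915 and 848 in 4-OHT libraries (-0.46 on the log2 scale, SE 0.06, limma adjusted p = 4.1e-06). It had a wide gap between the groups and shares 465 exonic bases with an opposite-strand gene.

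Mars2, for methionine, had 652, 603 and 669 normalized counts in vehicle and 524, 457 and 484 in 4-OHT libraries (log2 fold change -0.39, limma adjusted p = 0.00031). Tars2, for threonine, had 1012, 982 and 1067 against 835, 819 and 750 (-0.35, limma adjusted p = 0.00018). Sars2, for serine, had 362, 345 and 360 against 304, 273 and 254 (-0.36, limma adjusted p = 0.0039). In these 3 genes the groups did not overlap, although Sars2 did not pass when 4-OHT replicates 2 and 3 were left out together.

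A further 3 falls were lost when single libraries were left out. Ears2, which first places glutamate on the mitochondrial glutamine tRNA, had 312, 327 and 404 normalized counts in vehicle and 293, 293 and 229 in 4-OHT libraries (log2 fold change -0.35, limma adjusted p = 0.018). It no longer passed without vehicle replicate 3 (-0.24, adjusted p = 0.13) or without 4-OHT replicate 3 (-0.23, adjusted p = 0.12). Pars2, for proline, had 236, 257 and 245 against 180, 208 and 205 (-0.32, limma adjusted p = 0.023). It was lost without vehicle replicate 2 (-0.28, adjusted p = 0.094) and without 4-OHT replicate 1 (-0.25, adjusted p = 0.089). Cars2, for cysteine, had 447, 400 and 387 against 354, 295 and 359 (-0.29, limma adjusted p = 0.017). It was lost without vehicle replicate 1 (-0.23, adjusted p = 0.099) and without 4-OHT replicate 2 (-0.20, adjusted p = 0.099).

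Lars2, the mitochondrial leucyl enzyme, was the only mitochondrial member that rose in limma. Its normalized counts were 2553, 3714 and 2651 in the vehicle libraries and 3882, 3672 and 3792 in the 4-OHT libraries. The 4-OHT values were tight, but vehicle replicate 2 lay among them, so the groups overlapped. The log2 fold change was 0.37 (SE 0.09, limma adjusted p = 0.0024). It was 0.54 without vehicle replicate 2 and 0.27 without vehicle replicate 1, and it did not pass with DESeq2 (0.34, adjusted p = 0.12). Among the vehicle libraries, the mitochondrial ribosomal RNA mt-Rnr2 was also highest in replicate 2. It stood at 22072, 24216 and 22264 in vehicle and at 23262, 24157 and 23531 in 4-OHT libraries (log2 fold change 0.05, limma adjusted p = 0.39). Among the 4-OHT libraries, mt-Rnr2 was highest in replicate 2, where Lars2 was lowest. The part of mt-Rnr2 in the Lars2 values was not tested.

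The mitochondrial members that did not pass were Wars2, Nars2, Aars2, Rars2, Yars2, Fars2, Iars2 and Hars2, for tryptophan, asparagine, alanine, arginine, tyrosine, phenylalanine, isoleucine and histidine. Their log2 fold changes lay between -0.24 for Wars2 and 0.02 for Hars2. Wars2 passed when 4-OHT replicate 1 was left out (-0.36, limma adjusted p = 0.018). Iars2 was the most even, at 2788, 2803 and 2714 in vehicle and 2789, 2790 and 2739 in 4-OHT libraries (95% interval of the log2 fold change -0.09 to 0.10), but its exons share 2034 bases with Rab3gap2 on the opposite strand. Rab3gap2 had means of 1095 normalized counts in vehicle and 1026 in 4-OHT libraries (log2 fold change -0.09, limma adjusted p = 0.2). Whether the counting used strand is not given in the sources used here. In all, 15 of the 38 annotated members share exonic bases with another gene, 14 of them with a gene on the opposite strand, Hars and Hars2 with each other.

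Tarsl2, a relative of the cytosolic threonyl enzyme, was the least abundant member per length. It had 95.2, 116 and 113 normalized counts in vehicle and 116, 101 and 116 in 4-OHT libraries, and the groups overlapped. Its log2 fold change was 0.04 (SE 0.15, 95% interval -0.27 to 0.35, limma adjusted p = 0.86), an interval that includes the change of Tars.

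Per kilobase of transcript, most cytosolic synthetases had higher levels than the mitochondrial ones in vehicle organoids, with Lars2 among the lowest cytosolic members. Using the length of 1 principal transcript per gene (GENCODE vM21, GRCm38), Nars was highest at 6014 ± 184 normalized counts per kb (SD, n = 3), followed by Gars at 3556 ± 27.7, Wars at 3212 ± 65.1 and Rars at 2773 ± 89.1. The lowest cytosolic member was Hars at 730 ± 29.9. The highest mitochondrial member, Lars2, stood at 764 ± 166, which does not differ from Hars beyond its spread. Iars2 followed at 506 ± 8.66 and Tars2 at 425 ± 17.8. Mars2 at 56.8 ± 3.06 and Wars2 at 57.4 ± 4.87 were the lowest mitochondrial members and did not differ beyond their spread, and Tarsl2 stood at 33.9 ± 3.54. The place of Mars2 rests on an annotated length of 11.29 kb, the longest of the members. Before division by length its vehicle mean was 642 normalized counts, against 253 for Wars2. In the 4-OHT libraries Lars2 stood at 972 and Yars, then the lowest cytosolic member, at 532 per kb.

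**Figure D3:**
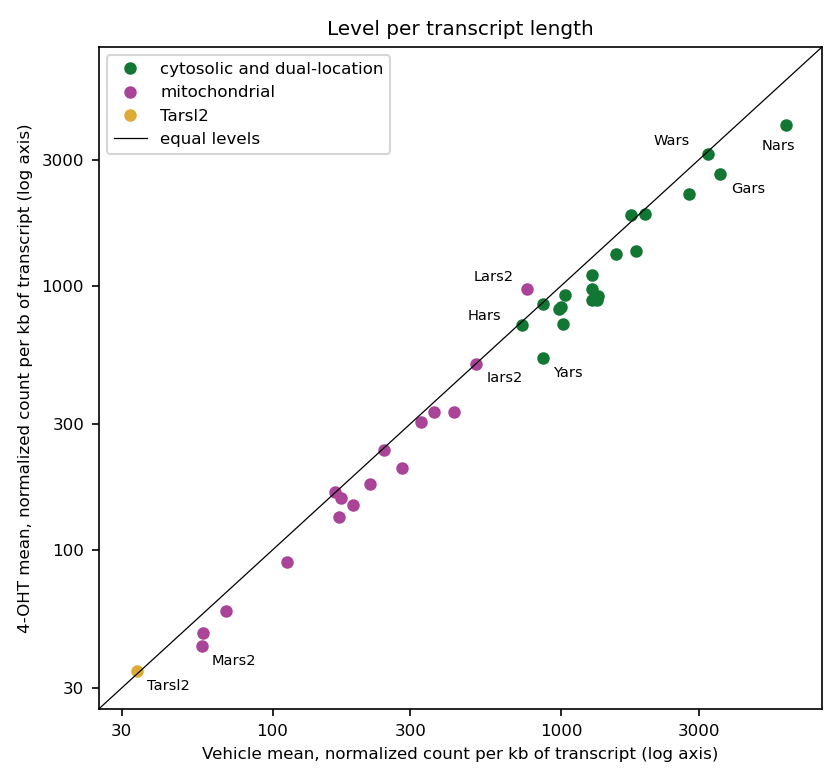
Mean normalized count per kilobase of transcript in vehicle (x, log axis) and 4-OHT libraries (y, log axis), 1 point per synthetase, with a line of equal levels. Most points lie under the line, Nars is highest in both groups at 6014 and 4064, and Lars2 lies above the line. 1 mitochondrial gene is not drawn.

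For each amino acid with both genes, the log2 ratio of the cytosolic to the mitochondrial gene was taken within each library, which removes anything that scales both alike. There were 18 such pairs over 17 mitochondrial genes, and pairs that share Eprs or Fars2 are not independent. The ratio was lower in all 4-OHT than in all vehicle libraries in 8 pairs, higher in 1 pair and overlapping in 9 pairs. For comparison, 52.1% of single tested rows did not overlap between the groups, 25.3% being lower and 26.8% higher. The 9 of 18 pairs that did not overlap are near the share of 52.1%. With 3 against 3 libraries the exact permutation test (two-sided) cannot go below p = 0.1, and the smallest Benjamini-Hochberg value over the 18 pairs was 0.2, so no pair passed.

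The ratio of Lars to Lars2 moved most. It was 0.63, 0.10 and 0.65 in vehicle and -0.45, -0.35 and -0.44 in 4-OHT libraries on the log2 scale, a difference of -0.87 made up of a lower Lars and a higher Lars2. The ratio of Yars to Yars2 was 2.38, 2.24 and 2.24 against 1.81, 1.69 and 1.57, a difference of -0.60 in which Yars carried most of the change. For Iars to Iars2 the values were 1.05, 1.08 and 1.16 against 0.59, 0.47 and 0.59. Ratios such as Vars to Vars2 (0.04) and Tars to Tars2 (0.09) had small differences and overlapped, with both genes of each pair lower in the 4-OHT libraries.

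**Figure D4:**
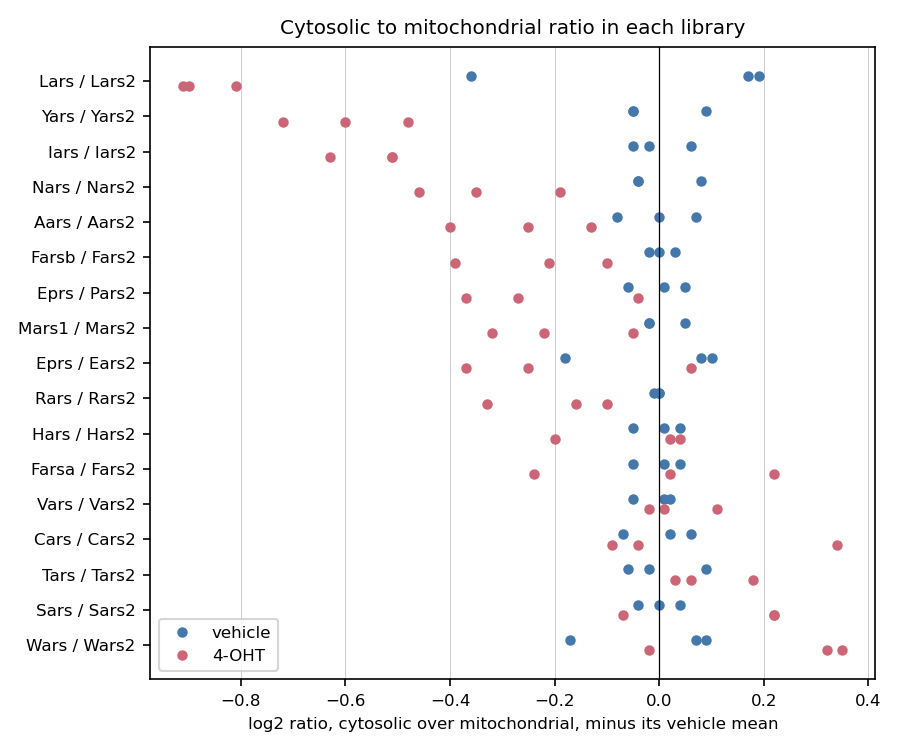
Log2 ratio of the cytosolic to the mitochondrial synthetase for the same amino acid in each library, minus the vehicle mean of that ratio, with vehicle in blue and 4-OHT in red. The 4-OHT points lie wholly to the left of the vehicle points in 8 of the 18 pairs, with Lars over Lars2 furthest at a difference of -0.87. Of single tested rows, 25.3% lay wholly lower. 1 pair is not drawn.

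The symbol Vars stood on a further row whose values moved in the opposite direction. This row sits in a block of 12 rows that break the alphabetical order of the table, and 4 of those 12 rows repeat a symbol found elsewhere. Its normalized counts were 7570, 8129 and 7716 in vehicle and 10562, 10317 and 10810 in 4-OHT libraries, without overlap (log2 fold change 0.44, SE 0.04, limma adjusted p = 1e-07). Which gene or transcript the row measures is not known, so the Vars values above were taken from the row in alphabetical place, and the second row was left out of the counts. Counting it as a further cytosolic member, or in place of the first, adds 1 rise and moves the cytosolic median to -0.27.

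The other genes of the pathway were counted from lists of tRNA handling, elongation, and amino acid supply. Of their 95 tested genes, 50 (52.6%) fell and 5 (5.26%) rose, beside 21.0% and 22.7% of all tested rows, with a median log2 fold change of -0.22 beside -0.01. Of the 3 scaffold genes of the multisynthetase complex, 0 fell and 1 rose in limma, at an unadjusted p under 0.05, in edgeR and in DESeq2. Eef1e1 rose from 828, 848 and 815 to 993, 1079 and 1035 (0.32, limma adjusted p = 0.00025), whereas Aimp1 (0.04) and Aimp2 (-0.14) did not pass. Of the 4 genes that complete mitochondrial glutaminyl-tRNA and formylate methionyl-tRNA, 1 fell, the amidotransferase subunit Gatc (-0.23). Of 3 tested genes that clear mischarged or D-aminoacyl tRNAs, 0 changed in limma, at an unadjusted p under 0.05, in edgeR or in DESeq2.

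Among the 6 genes for selenocysteine tRNA, 3 fell, namely Sepsecs (-0.39) and Pstk (-0.33), which convert the seryl-tRNA made by Sars, and the elongation factor Eefsec (-0.36). Of 12 genes for tRNA end processing and export, 4 (33.3%) fell and 2 (16.7%) rose, shares near the 21.0% and 22.7% of all tested rows. The tRNA 3′ processing enzyme Elac1 had the largest fall (-1.04), followed by the tRNA exporter Xpot (-0.54), and the CCA-adding enzyme Trnt1 rose (0.35). Of 24 tested tRNA modification enzymes, 8 (33.3%) fell and 0 rose in limma (0 also unadjusted, in edgeR and in DESeq2), among them Trdmt1 (-0.62), Adat1 (-0.50) and Osgepl1 (-0.48). Of 5 tested cytosolic elongation factors, 0 passed in limma (0 also unadjusted, in edgeR and in DESeq2), with a median of -0.08, although all 5 had every 4-OHT value below every vehicle value, as 25.3% of all tested rows did. Of 4 mitochondrial elongation factors, 3 fell, with a median of -0.18.

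Genes that supply amino acids had larger median falls than the synthetases, which was not tested. Of 13 amino acid synthesis genes, 12 (92.3%) fell and 1 (7.69%) rose, beside 21.0% and 22.7% of all tested rows. Their median log2 fold change was -0.93. Pycr1 in proline synthesis (-1.31), Gpt2 in alanine synthesis (-1.22) and Shmt2 in serine and glycine metabolism (-1.11) fell most, and Glul, the glutamine synthetase, rose (0.29). All 11 amino acid transporters fell, again beside 21.0% of all tested rows. Their median was -0.75, and among them were Slc7a3 (-1.25), Slc43a1 (-1.15) and Slc7a5 (-0.97). Of 10 genes that sense uncharged tRNA or respond to it, 8 fell and 1 rose. Trib3 (-1.44), Ddit3 (-0.84) and Atf5 (-0.79) fell most, and Atf4 itself fell from 9113, 9020 and 9208 to 6574, 7311 and 6493 (-0.43, limma adjusted p = 4.6e-07). These lists were chosen with earlier results of these data known, so their counts are descriptions.

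**Figure D5:**
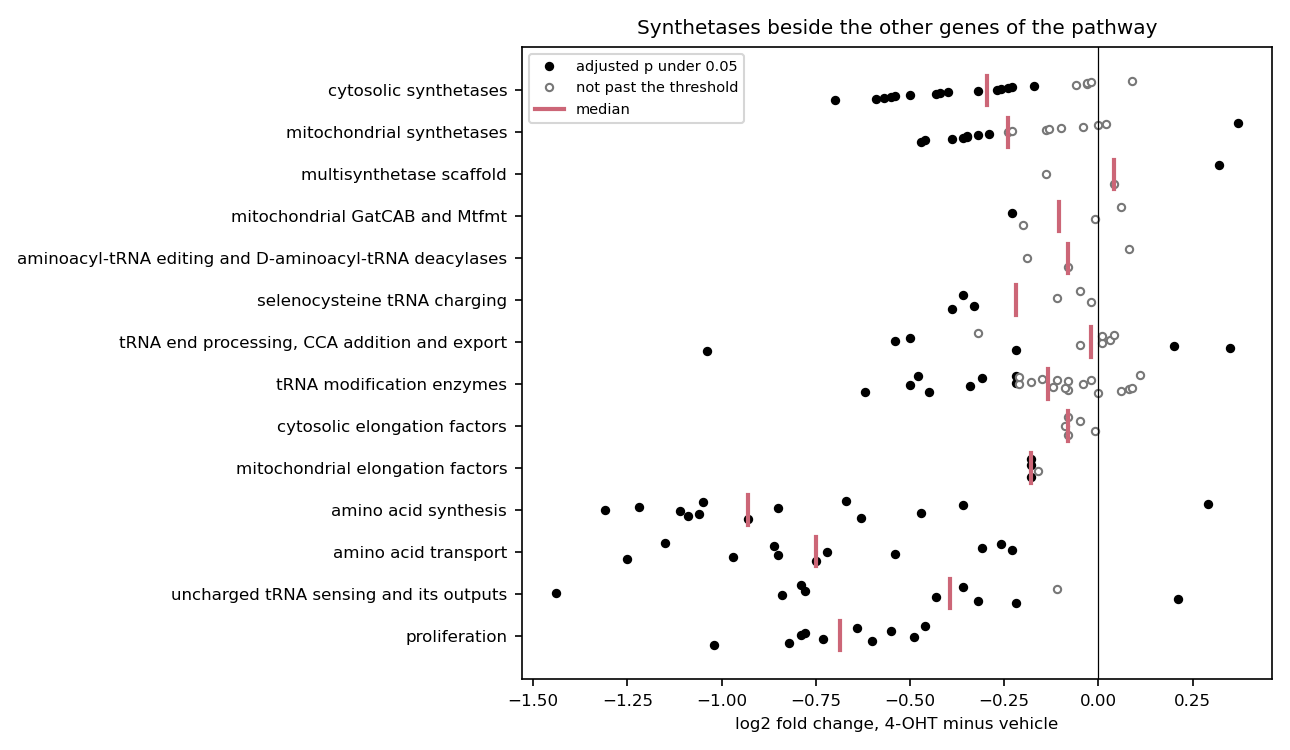
Log2 fold change, 4-OHT minus vehicle, of each gene in the synthetase groups and in the other lists (rows), filled where the limma adjusted p is under 0.05 and open otherwise, with a red bar at the median. The medians of amino acid synthesis (-0.93) and transport (-0.75) lie further left than those of the cytosolic (-0.30) and mitochondrial (-0.24) synthetases, and the cytosolic elongation factors (-0.08) lie near 0.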

How the data were processed

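The deposited values were normalized counts, a signal for which the authors scaled the read count of a gene by a factor of its library. Per the labels' processing notes, STAR, DESeq2 and the build GRCm39 (mm39) were used, and the counting tool and strand setting are not given in the sources used here. Multiplied back, 100% of values fell within 0.1 of a whole read, and these recovered reads served as counts. All errors cover only counting and the spread between libraries. The test was limma-trend (version 3.58.1, R 4.3.3) on log2 of the normalized count plus 1, which understates changes of low genes. It ran over 13210 rows whose mean was 10 or more, and calls needed a Benjamini-Hochberg adjusted p under 0.05. The scripts were tested on simulated data. Alternatives were other pseudocounts, filters and scalings, each library left out, a replicate block, and count tests in edgeR (4.0.16) and in DESeq2 (1.42.0). Libraries of a group differed by 3.55 to 6.49 times the counting variance, so none is a copy. The members and lists were chosen with earlier results of these data known. Values in each library were given for members past the threshold and for Gars, Kars, Eprs, Farsa, Farsb and Tarsl2, and up to 3 genes past the threshold were named per list. Values of Qars, Iars2, mt-Rnr2, Rab3gap2, Asns, the second Vars row, Aimp1, Aimp2, Ang4, Fabp6, Reg3g and Cdx2 were added after they were seen. Transcript lengths and exon overlaps came from GENCODE vM21 on GRCm38, and promoter sequences from RefSeq on GRCm38.p6, neither of which is the build of the files. Values of 1 mitochondrial member, a gene of another list and 1 promoter window are not reported here, although the counts and medians include them.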

Additional observations from a re-analysis of the deposited data

How the results depend on the processing

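Over 17 alternatives, 632 of 663 values of single synthetases kept their direction and their side of the threshold, 18 no longer passed, 2 newly passed and 11 turned direction. The number of cytosolic members that fell stayed between 14 and 16. In all alternatives 13 of the 15 called cytosolic members and 4 of the 9 called mitochondrial members passed in the same direction, the exceptions being Cars, Dars, Cars2, Ears2, Pars2, Sars2 and Lars2. With no filter on low values, which brings in rows at 0 in every library, 3841 genes changed in place of 5765, 5 mitochondrial members fell and 0 rose, and Cars (adjusted p = 0.067), Cars2, Ears2, Pars2 and Lars2 (adjusted p = 0.24) did not pass. That filter was then also replaced by rows with at least 1 read, an alternative added after the result without a filter had been seen, and 5526 genes changed, 8 mitochondrial members fell and 1 rose. Without 4-OHT replicates 2 and 3, where the lone 4-OHT library is assumed to vary like the vehicle libraries, 3569 genes changed, 5 mitochondrial members fell and 0 rose, the cytosolic median was -0.38 and the mitochondrial -0.21, Dars had an adjusted p of 0.051, and Farsa stood at 0.062. With DESeq2, 0 mitochondrial members rose. With quantile normalization the mitochondrial median was -0.19 and 7 mitochondrial members fell. In that setting Pars2 did not pass (-0.26, limma adjusted p = 0.057) and Kars passed (-0.13, limma adjusted p = 0.022). Leaving out each library in turn, the mitochondrial median ran from -0.28 to -0.20. With either use of the second Vars row, also chosen after seeing the data, 1 cytosolic member rose. Values near 0 turned direction: Iars2 was -0.00017 with TMM factors, -0.055 with quantile normalization, -0.0029 with edgeR, -0.0013 with DESeq2 and between -0.012 and 0.01 with single libraries left out. With single libraries left out, Fars2 ran from -0.13 to 0.029, Hars2 ran from -0.048 to 0.07 and Tarsl2 from -0.05 to 0.11. The causes were not tested.

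Libraries with the same replicate number did not deviate together (correlations of -0.0074, 0.0303 and -0.0202), so the numbers were not taken as pairs. With the replicate number as a block, 5637 genes changed, 15 cytosolic members fell and 0 rose, and 8 mitochondrial members fell and 1 rose. With the block, 51 genes of the other lists fell and 4 rose.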
